A study of Mus musculus with 20 samples.

Results

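The iron and heme handling genes examined here are 10 genes of the mouse liver: Hamp and Hamp2, Bmp6, Tfrc, Trf, Slc40a1, Fth1, Ftl1, Alas1 and Alas2. Their members were taken by name: every probe set whose only gene symbol is one of these was used, which gave 15 probe sets. They are 10 of 17097 genes measured. RNA from the liver of 20 mice, each 11 weeks old, was hybridised to Affymetrix arrays, with 1 array per mouse and 5 mice in each of 4 groups. The comparisons ask what a DNA repair defect and a restricted diet change in the liver, alone and together. Progeroid mice carried an Ercc1Δ allele over an Ercc1- allele in the germ line, so that every tissue had the defect; Ercc1 encodes a subunit of a DNA repair endonuclease, and these mice age early. Wild type littermates carried both normal copies. All mice were F1 hybrids of C57BL6J and FVB parents, kept on AIN93G pellets. The control groups ate freely. In the restricted groups food was cut by 10% from 7 weeks of age and by 30% from 9 weeks. Wild type mice under restriction were then fed 2.1 g a day against the 3.0 g that wild type mice ate freely, and the food came just before the dark period. The sex of the mice and the hour of sampling were not given in the sources used here.

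Iron enters the liver mostly bound to transferrin (Trf), a serum protein that hepatocytes make, and transferrin receptor 1 (Tfrc) carries it into cells. Ferritin, built from heavy (Fth1) and light (Ftl1) chains, stores iron inside the cell, and ferroportin (Slc40a1) is the known exporter of iron from cells. Hepatocytes secrete hepcidin, the peptide made from Hamp, which binds ferroportin and lowers its activity. Iron stores raise hepcidin through bone morphogenetic protein 6 (Bmp6) and SMAD proteins, and inflammation raises it through interleukin 6 and STAT3. Mice have a second gene, Hamp2, whose product is not known to act on iron in the same way. Aminolevulinate synthase makes the first precursor of heme; Alas1 is the form of the liver and most tissues, and Alas2 is the form known from red cell precursors. The RNAs of Tfrc, Fth1, Ftl1, Slc40a1 and Alas2 carry iron-responsive elements, stem-loops through which iron regulatory proteins control RNA stability or translation.

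Hamp and Hamp2 lie next to each other on chromosome 7, with 18 kb between them, and their upstream sequences are shown because both genes encode hepcidin peptides and their values are given side by side below. In RefSeq's GRCm38.p6 assembly the 250 bases before the start of Hamp are chr7:30944030-30944279 and those before Hamp2 are chr7:30924182-30924431, both on the minus strand. They are printed 5′ to 3′; capitals mark the core of the BMP response element (GGCGCC) with the aligned letters of Hamp2, and a STAT site (TTCNNNGAA).
Hamp: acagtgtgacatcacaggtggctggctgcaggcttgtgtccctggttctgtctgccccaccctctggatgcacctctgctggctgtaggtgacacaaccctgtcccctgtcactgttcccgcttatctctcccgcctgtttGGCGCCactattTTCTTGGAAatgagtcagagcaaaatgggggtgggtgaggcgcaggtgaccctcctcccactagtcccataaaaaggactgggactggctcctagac
Hamp2: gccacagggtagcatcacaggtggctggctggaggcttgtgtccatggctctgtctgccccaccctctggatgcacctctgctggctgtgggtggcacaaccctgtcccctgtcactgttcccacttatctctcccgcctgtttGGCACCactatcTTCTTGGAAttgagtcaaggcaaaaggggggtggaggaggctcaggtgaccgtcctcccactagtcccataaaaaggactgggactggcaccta
Of 247 aligned bases, 227 were identical (91.9%) and 20 differed. A single difference fell in the BMP core: G145A, counted from 1 at the first printed base of Hamp, with the base of Hamp first. The core began at -109 from the start of Hamp, and the STAT site began at -97 in Hamp and at -94 in Hamp2 with the same letters. Both strands were searched, and the motifs did not overlap. In windows of 300 bases, from 250 before to 50 after a start, GGCGCC was found in 11.9% of 32851 windows and TTCNNNGAA in 8.3%. These are the letters of the reference strain; the mice studied also carry an FVB copy. A window was found for 8 of the 10 genes. Among the others, Tfrc held GGCGCC at -89 in the first of its 2 windows, Alas1 held TTCNNNGAA at -171 and Bmp6 held the E-box CACGTG at -127, which 7.15% of windows hold.

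The labels and the tissue were checked first. Ercc1 levels on the probe set of highest mean averaged 6.54 and 6.15 in wild type mice on control and restricted diet and 5.30 and 4.80 in progeroid mice, with no overlap between the genotypes. The 11 measured hepatocyte markers had mean levels between 11.98 and 12.24 in the 20 livers, above the array medians of 4.17 to 4.21. In each group 1 of them had a mean under 5. The share of hepatocytes in the tissue was not tested. Of the cell type lists, Kupffer cell and macrophage markers had the largest share called in any of the 5 comparisons counted for these lists: 9 of 12 were higher in progeroid than in wild type livers under restriction. Of all genes, 11.8% were higher there. The difference between 3′ and 5′ control probe sets of Gapdh, which grows as RNA degrades, averaged 0.93 ± 0.28 (SD) in progeroid and 0.66 ± 0.06 in wild type control mice; the two-sided exact permutation p was 0.0476, and 0.296 after adjustment over 8 comparisons. Levels below are log2 values from RMA, an array normalization, and each is the level of 1 probe set; levels of different genes were not set against each other.

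Of the 10 genes, 4 passed the test in at least 1 comparison of the genotypes on the same diet or of the diets within a genotype. The share of all genes that passed in at least 1 of these comparisons was not counted. Ftl1 passed only between freely fed progeroid and restricted wild type mice, which differ in both (adjusted p = 0.0297). Restriction raised Hamp2 and Tfrc in wild type mice and lowered Alas2 in both genotypes, and it raised Fth1 in progeroid mice. The test was limma's moderated test over all 20 arrays with Benjamini-Hochberg adjustment over all 17097 genes, and a gene was called at an adjusted p under 0.05. Between genotypes on control diet 0 of the 10 were called, where 11.0% of all genes were (6.70% higher and 4.32% lower in progeroid mice); at an unadjusted p under 0.05 there was 1, Slc40a1. Restriction called 3 of the 10 in wild type mice, against 22.5% of all genes, with 2 higher (9.92% of genes) and 1 lower (12.6%). In progeroid mice it called 2, against 12.0% of genes, with 1 higher (6.94%) and 1 lower (5.07%). Between genotypes under restriction 2 were called, both lower in progeroid mice, against 17.2% of genes (11.8% higher and 5.44% lower). Counted in either direction, these shares are near those of genes in general. By direction they departed more between genotypes under restriction, where 2 were lower against 5.44% of genes and 0 higher against 11.8%. No test of the set was run. When the diet effect in wild type mice was subtracted from that in progeroid mice, 2 of the 10 were called, Hamp2 and Tfrc, against 1.40% of genes (1.03% higher, 0.374% lower). The members were chosen with earlier results of these data known, so this count is no independent measure of the set. The call of Tfrc was lost without any 1 of 8 mice. The median change of the members was -0.08, against -0.01 for all genes, for genotype on control diet. It was 0.11 against -0.01 for diet in progeroid mice and 0.09 against -0.03 for diet in wild type mice. For genotype under restriction it was -0.03 against -0.003. The widest gap was between freely fed progeroid and restricted wild type mice, with -0.19 against 0.01.

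**Figure D1:**
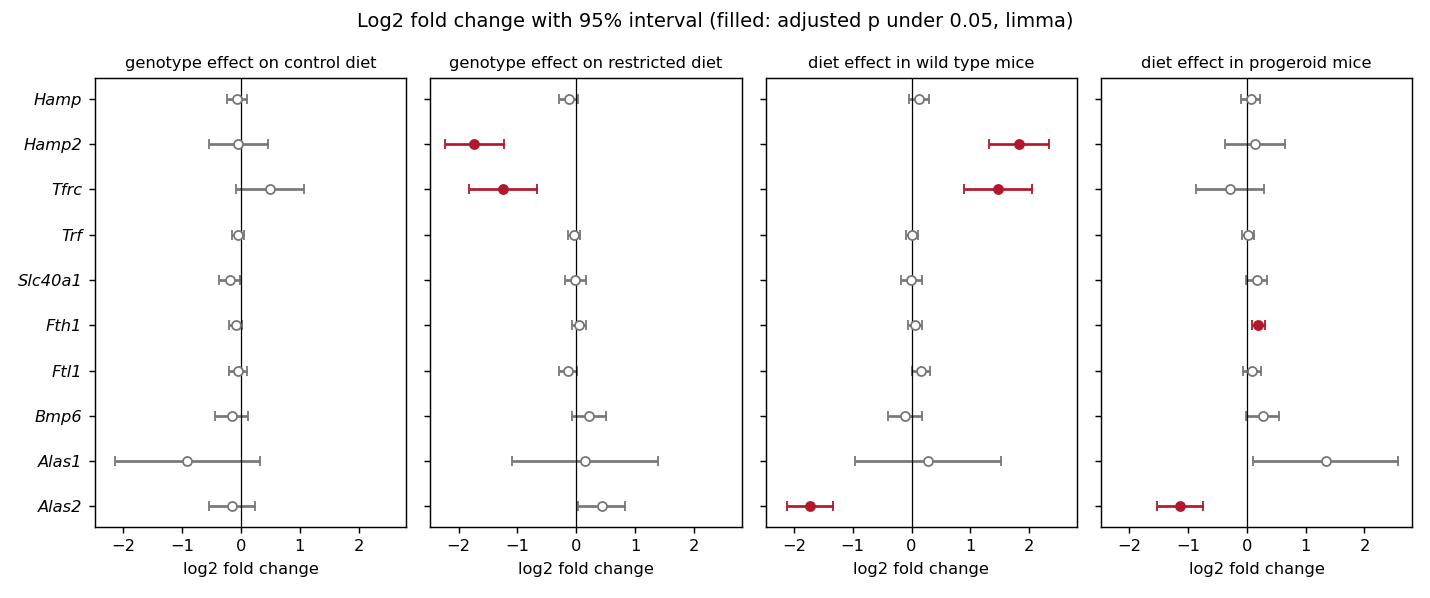
Log2 fold change of each of the 10 genes with its 95% interval in the genotype comparisons (progeroid minus wild type) on each diet and the diet comparisons (restricted minus control) in each genotype; filled red points passed an adjusted p of 0.05. Hamp2 and Tfrc lie far to the right for diet in wild type mice and far to the left for genotype under restriction, Alas2 lies to the left for diet in both genotypes, and the interval of Alas1 is the widest in each panel.

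Hamp2 was high in the restricted wild type livers and at a common lower level in the other 3 groups. Its levels in restricted wild type mice were 13.36, 12.20, 12.55, 12.41 and 13.34. Wild type mice on control diet had 11.17, 11.29, 10.27, 10.66 and 11.34. Every restricted wild type liver was thus above every freely fed one, by 1.83 ± 0.24 (SE) on the log2 scale on average, a 3.54-fold rise with an adjusted p of 1.71e-05 by limma. Progeroid mice had 10.88, 10.51, 10.90, 10.90 and 11.32 on control diet and 10.40, 11.12, 11.27, 11.14 and 11.27 under restriction. These groups overlapped, and the diet difference was 0.14 with a 95% interval from -0.37 to 0.64 (adjusted p = 0.785). The difference between the diet effects was -1.69 ± 0.34 (adjusted p = 0.0197). Under restriction progeroid livers were below wild type livers with no overlap, by 1.73 log2 units or 3.32-fold (adjusted p = 5.01e-05). The diet rise in wild type mice and the difference between the diet effects passed the threshold whichever of the 20 animals was left out. Hepatocyte markers averaged 12.22 in restricted and 12.09 in freely fed wild type livers. In bulk tissue, more cells of a type and more RNA per cell cannot be told apart.

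These values rest on 1 of the 2 probe sets of Hamp2, whose name marks it as one with probes that may also match other transcripts. The other probe set lay between 3.11 and 3.64 in all 20 livers, near the bottom of the scale, which reaches down to 2.2. There, restricted wild type mice were 0.18 above freely fed ones (adjusted p = 0.0921 over 45037 probe sets, 19.0% of which were called) and 0.19 above restricted progeroid mice (adjusted p = 0.104, with 11.5% called). The difference of the diet effects was -0.19 on this probe set (adjusted p = 0.435). So no call is left for Hamp2 without the first probe set, although both point the same way. Whether Hamp RNA adds to the first probe set was not tested.

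Hamp itself, the hepcidin gene, varied little. Restricted wild type mice had 13.25, 13.05, 13.12, 12.96 and 13.16, and freely fed wild type mice 13.07, 13.09, 12.98, 12.91 and 12.85. Progeroid mice had 12.70, 12.78, 13.03, 12.99 and 13.07 on control diet, and 12.88, 13.04, 13.05, 13.05 and 12.85 under restriction. All 4 groups overlapped. The diet effect in wild type mice was 0.13 (95% interval -0.04 to 0.29, adjusted p = 0.291), and the genotype effect on control diet was -0.07 (-0.23 to 0.10, adjusted p = 0.663). Its second probe set, also of the kind that may match other transcripts, gave restricted wild type livers 12.85 to 13.08 and restricted progeroid livers 12.63 to 12.84, which do not overlap, with a difference of -0.20 (adjusted p = 0.138). Freely fed progeroid livers were 0.26 below restricted wild type livers on that probe set (adjusted p = 0.0296 over probe sets, 21.3% of which were called in this comparison) and 0.19 below on the first one (adjusted p = 0.0763 over genes, with 27.9% called). These levels lie near the top of the scale, where arrays are known to understate changes.

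**Figure D2:**
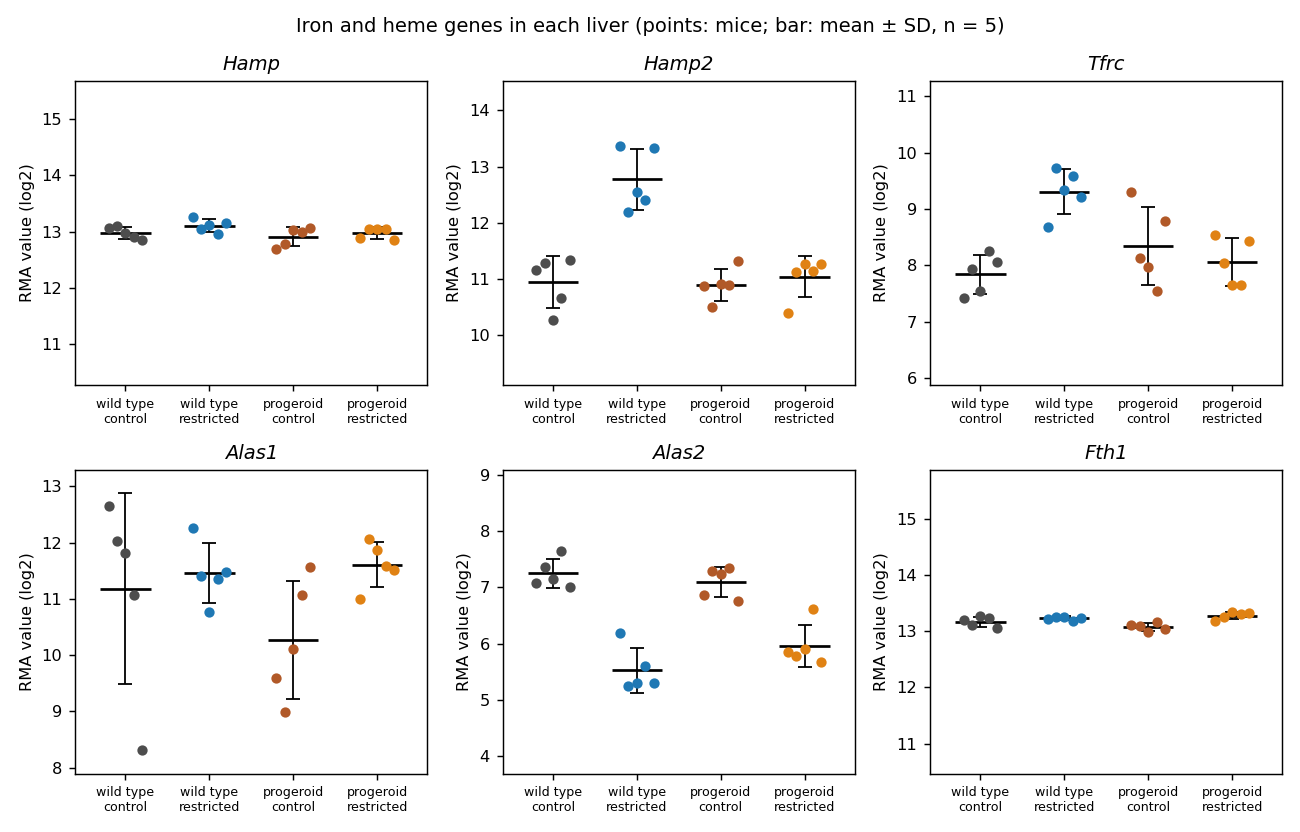
Log2 RMA levels of Hamp, Hamp2, Tfrc, Alas1, Alas2 and Fth1 in each of the 20 livers, with 1 point per mouse and a bar for the mean ± SD of each group of 5; every panel spans the same number of log2 units. The restricted wild type mice lie above every other mouse for Hamp2 and have the highest mean for Tfrc, where they overlap freely fed progeroid mice, both restricted groups lie low for Alas2, and 1 freely fed wild type mouse lies far below its group for Alas1 at 8.31.

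Bmp6, the ligand through which iron stores act on hepcidin, had levels between 5.23 and 6.01, above the array medians of 4.17 to 4.21. Freely fed progeroid mice had 5.30, 5.34, 5.35, 5.65 and 5.68 and restricted ones 5.35, 5.66, 5.96, 6.01 and 5.67, a difference of 0.27 (95% interval -0.02 to 0.55, adjusted p = 0.238). Wild type mice had 5.82, 5.56, 5.65, 5.86 and 5.23 on control diet and 5.75, 5.24, 5.73, 5.50 and 5.31 under restriction. The groups overlapped throughout, and no comparison of Bmp6 passed.

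Of 18 other measured genes of the BMP and iron sensing pathway to hepcidin, 1 rose and 0 fell in progeroid mice on control diet. It was Id1, a target gene of BMP signalling, which averaged 7.56 in wild type and 9.15 in progeroid livers (1.59 ± 0.39, adjusted p = 0.01); under restriction it was 1.94 higher in progeroid mice (adjusted p = 0.00146). In wild type mice restriction raised 5 of the 18. Smad4, the shared partner of the SMAD proteins, rose by 0.42 (adjusted p = 0.000914) and Bmper, a secreted BMP binding protein, by 0.93. Bmper was dim, with a mean of 4.05 in freely fed and 4.97 in restricted wild type livers. The others were the activin receptors Acvr1 (0.39) and Acvr2a (0.25), and Smad5 (0.21). Restriction lowered 2: Neo1, a receptor for hemojuvelin (-0.66), and Tmprss6, the protease that cleaves hemojuvelin (-0.26). Restriction in progeroid mice raised Bmp2 (0.42) and Smad4 (0.35) and lowered none. Between genotypes under restriction Id1 was higher, and Acvr2a (-0.26), Acvr1 (-0.33) and Smad4 (-0.24) were lower in progeroid mice. The 4 calls under restriction were sensitive to single mice: 2 were left without mouse 327, 365, 366, 368, 369, 402, 403 or 404 and 1 without mouse 423, 424 or 425, while array weights gave 7. Without mouse 423 or 425 the 7 calls for diet in wild type mice became 4, and without mouse 327 or 405 the 1 call on control diet became 2. For the difference of the diet effects 0 of the 18 passed with limma, and 4 had an unadjusted p under 0.05. The list's median changes were 0.08, 0.06, 0.19 and -0.04 for genotype on control diet, diet in progeroid mice, diet in wild type mice and genotype under restriction. Of all genes, 11.0%, 12.0%, 22.5% and 17.2% were called in these comparisons, and 1.40% for the difference of the diet effects. Id1 thus was higher in progeroid livers on both diets while Hamp did not pass in either comparison. Under restriction its values overlapped, with 6.83 to 9.05 in wild type and 8.77 to 9.87 in progeroid livers. Smad6 and Smad7 of the same list did not pass on control diet (0.09, adjusted p = 0.854, and 0.44, adjusted p = 0.436). They did not pass under restriction either (-0.11, adjusted p = 0.809, and 0.84, adjusted p = 0.077). The activity of BMP signalling was not tested.

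Of 12 measured genes of the interleukin 6 and STAT3 route, 2 were higher in progeroid mice on control diet, Lcn2, an acute phase protein that binds bacterial iron carriers (2.91 ± 0.25), and Orm2, an acute phase glycoprotein (1.11). Restriction in wild type mice raised 3 (Lcn2 by 2.06, Fgl1 by 0.96 and Orm2 by 0.997) and lowered 3 (Saa1 by -2.46, Saa2 by -2.60 and Crp by -0.42). In progeroid mice it lowered 2, Saa1 (-1.44) and Crp (-0.39); 0 were called there without mouse 323, 326 or 362, and 1 without mouse 321 or with trend and robust moderation. Under restriction 4 were higher in progeroid livers: the serum amyloids Saa1 (2.25) and Saa2 (2.50), Lcn2 (1.42) and Socs3, a feedback inhibitor of STAT3 (1.37). Lcn2 was the 1 gene of the list with a called difference between the diet effects (-1.50, adjusted p = 0.0413). That call was lost without any 1 of 13 mice (321, 323, 325, 326, 368, 369, 402, 404, 405, 422, 423, 424 or 425) and with trend and robust moderation, and 2 genes were called without mouse 401 or 421. On control diet 4 were called without mouse 321 or 421. The medians were 0.37, 0.01, 0.00 and 0.10 in the same order of comparisons. Of all genes, 11.0%, 12.0%, 22.5% and 17.2% were called in them, and 1.40% for the difference of the diet effects.

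Tfrc, the receptor that brings transferrin iron into cells, followed a pattern like that of Hamp2. Restricted wild type mice had 8.68, 9.73, 9.34, 9.58 and 9.21, and freely fed ones 7.41, 7.93, 7.54, 8.25 and 8.06. No value was shared between these groups, and the rise was 1.47 ± 0.28, or 2.77-fold (adjusted p = 0.000624). Progeroid mice on control diet spread from 7.54 to 9.30, with 9.30, 8.13, 7.97, 7.54 and 8.78, and so overlapped restricted wild type mice. Under restriction they had 8.54, 8.04, 7.64, 7.64 and 8.43, a diet difference of -0.28 with an interval from -0.86 to 0.29 (adjusted p = 0.575). Restricted progeroid livers were below restricted wild type livers without overlap, by 2.38-fold (adjusted p = 0.00313). The difference of the diet effects was -1.76 ± 0.39 (adjusted p = 0.0275). That call was lost without any 1 of 8 mice (327, 366, 368, 401, 403, 422, 423 or 424), where the adjusted p was between 0.0522 and 0.0571 and the difference between -1.75 and -1.65. The diet rise in wild type mice held whichever animal was left out.

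The other 2 probe sets of Tfrc were dim, with levels from 3.79 to 4.73 and from 3.17 to 4.28. Both were higher in restricted than in freely fed wild type mice, by 0.46 (adjusted p = 0.00771) and 0.60 (adjusted p = 0.000629 over probe sets). Between genotypes under restriction the differences were -0.22 (adjusted p = 0.256) and -0.45 (adjusted p = 0.0092). The difference of the diet effects was -0.58 and -0.61 and did not pass on either (adjusted p = 0.099 and 0.0692). On the first of them freely fed progeroid livers were 0.37 above freely fed wild type livers with no overlap (adjusted p = 0.0598), and the brightest probe set gave 0.50 for that comparison (adjusted p = 0.283). Kupffer cell and macrophage markers, of cells that also take up and release iron, had mean levels of 7.52 (7.19 to 7.77) in restricted and 7.82 (7.63 to 8.08) in freely fed wild type livers, and of 8.15 (7.92 to 8.71) in restricted and 8.13 (7.79 to 8.44) in freely fed progeroid livers. Their list was lowest in the group where Tfrc was highest. All 12 were measured. Their part in the levels of Tfrc was not tested.

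Trf, whose product carries iron in the blood, stayed between 13.85 and 14.05 in all 20 livers. The group means lay within 0.06 of each other, a range smaller than that of all but 2.79% of genes. Trf levels are near the top of the scale, where arrays are known to understate changes. How far this narrowed the range of Trf was not tested. The interval of the diet effect was -0.09 to 0.10 in wild type and -0.08 to 0.11 in progeroid mice, and the interval of the genotype effect was -0.15 to 0.05 on control diet. Within groups Trf moved with the Gapdh 3′ to 5′ difference (Pearson r = -0.73 over 20 arrays, as a description), the closest such relation among the 10 genes, for which r otherwise lay between -0.29 and 0.32. Its part in the small differences of Trf was not tested.

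Slc40a1, the iron exporter, was at 11.90, 11.88, 11.77, 11.73 and 11.51 in freely fed and 11.77, 11.72, 11.67, 11.79 and 11.83 in restricted wild type livers. Freely fed progeroid livers had 11.33, 11.47, 11.78, 11.74 and 11.54 and restricted ones 11.61, 11.74, 11.86, 11.74 and 11.75. All groups overlapped, with the lowest 2 values in freely fed progeroid mice. The genotype effect on control diet was -0.19 (95% interval -0.37 to -0.01, adjusted p = 0.171) and the diet effect in progeroid mice 0.17 (-0.01 to 0.35, adjusted p = 0.223). On its second probe set, with levels from 9.51 to 10.22, the same comparisons gave -0.20 (adjusted p = 0.331) and 0.08 (adjusted p = 0.746).

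Among 18 other measured genes of iron uptake, export and storage, 3 passed for genotype on control diet, 6 for diet in wild type mice, 1 for diet in progeroid mice and 4 for genotype under restriction. On control diet 1 was higher in progeroid mice, the metal importer Slc39a8 (0.29), and 2 were lower, the metalloreductase Steap2 (-0.72) and the iron chaperone Pcbp2 (-0.21); 1 call was left without mouse 323, 326, 401, 402 or 405, and in a fit of only the groups compared. Restriction raised Slc25a28, which carries iron into mitochondria, in both genotypes: by 0.58 ± 0.09 in wild type (adjusted p = 5.82e-05) and by 0.58 ± 0.09 in progeroid mice (adjusted p = 0.000189). In wild type mice Steap2 also rose (0.89), and 4 genes fell: the metalloreductase Steap4 (-0.85), the mitochondrial ferritin gene Ftmt (-0.28), Iscu, a scaffold for iron-sulfur clusters (-0.23), and the iron chaperone Pcbp1 (-0.25). In progeroid mice no other gene of the list passed, though 2 were called without mouse 325, 327, 402, 404 or 425 and 3 without mouse 423. Under restriction Steap4 (1.04), Slc39a8 (0.26) and Iscu (0.21) were higher and Steap2 (-1.12) was lower in progeroid livers. For the difference of the diet effects limma called 0 of the 18, and 0 had an unadjusted p under 0.05. The medians were 0.01, -0.07, -0.03 and 0.01 for genotype on control diet, diet in progeroid mice, diet in wild type mice and genotype under restriction. In these comparisons 11.0%, 12.0%, 22.5% and 17.2% of all genes were called.

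Ferritin chains changed by small amounts, at levels near the top of the scale, where arrays are known to understate changes. Fth1 was at 13.12, 13.09, 12.99, 13.17 and 13.03 in freely fed and 13.18, 13.25, 13.34, 13.30 and 13.33 in restricted progeroid mice, with no overlap. The rise was 0.20 ± 0.05, or 1.15-fold (adjusted p = 0.0227). It no longer passed without mouse 325, 366 or 369 (adjusted p between 0.0549 and 0.0586) or in a fit of these 2 groups alone (0.0676). Wild type mice had 13.20, 13.10, 13.26, 13.23 and 13.05 on control diet and 13.22, 13.25, 13.25, 13.18 and 13.24 under restriction, which overlap, with a diet effect of 0.06 (-0.06 to 0.17, adjusted p = 0.499). The diet effects of Fth1 differed by 0.14 between the genotypes (adjusted p = 0.443).

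Ftl1 had levels of 13.05, 12.69, 13.12, 13.01 and 12.83 in freely fed and 13.07, 13.19, 13.02, 13.19 and 13.06 in restricted wild type mice. Progeroid mice had 13.00, 12.93, 12.86, 12.86 and 12.79 on control diet and 12.91, 13.02, 13.00, 13.00 and 12.92 under restriction. Its diet effect was 0.17 in wild type (0.02 to 0.32, adjusted p = 0.108) and 0.08 in progeroid mice (-0.07 to 0.23, adjusted p = 0.534). Without mouse 403 the effect in wild type mice was 0.21 and passed (adjusted p = 0.0464). Of the 10 genes, 5 were called between freely fed progeroid and restricted wild type mice, a comparison in which 27.9% of all genes were called. Freely fed progeroid livers, the group of lowest mean for both chains, did not overlap restricted wild type livers for either: Ftl1 was 0.22 lower (adjusted p = 0.0297) and Fth1 0.15 lower (adjusted p = 0.0486). Both of these calls were sensitive to single mice, since 5 of 20 removals ended the call of Ftl1 and 15 of 20 that of Fth1.

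Alas1, the liver form of the first heme enzyme, varied more from mouse to mouse than any other of the 10 genes. Freely fed wild type mice had 12.65, 12.03, 11.82, 11.07 and 8.31. Freely fed progeroid mice had 9.60, 9.00, 10.11, 11.07 and 11.56. The restricted groups were tighter, with 12.25, 11.41, 10.77, 11.36 and 11.47 in wild type and 11.00, 12.06, 11.86, 11.58 and 11.52 in progeroid mice. The SD was 1.70 and 1.05 in the freely fed and 0.53 and 0.40 in the restricted groups of wild type and progeroid mice; these spreads were not tested. In progeroid mice the restricted level was 1.34 above the freely fed one (95% interval 0.10 to 2.57), which did not pass (adjusted p = 0.159), and in wild type mice it was 0.28 above (-0.96 to 1.51, adjusted p = 0.793). Freely fed progeroid livers were 0.91 below wild type ones (-2.15 to 0.33, adjusted p = 0.379).

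These results depend on a single mouse. Without the freely fed wild type mouse at 8.31 (405), the genotype effect on control diet was -1.62 and passed (adjusted p = 0.0159), the diet effect in progeroid mice was still 1.34 but passed (adjusted p = 0.0327), and the diet effect in wild type mice turned to -0.44 without passing. The genes whose 20 values were most like those of Alas1 were Pfkfb3, a regulator of glycolysis (Pearson r = 0.84, Spearman rho = 0.77), Coq10b, a coenzyme Q binding protein (0.84 and 0.80), and Pla2g12a, a phospholipase (0.80 and 0.72). Pfkfb3 also reached its lowest value, 5.43, among freely fed wild type mice, whose mean was 7.51.

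Alas2, the erythroid form of the enzyme, fell under restriction in both genotypes. Freely fed wild type mice had 7.08, 7.37, 7.16, 7.65 and 7.00 and restricted ones 6.19, 5.24, 5.30, 5.59 and 5.31. The fall was -1.72 ± 0.19, a 3.30-fold difference with no overlap (adjusted p = 1.9e-06). Freely fed progeroid mice had 6.87, 7.28, 7.23, 7.35 and 6.76 and restricted ones 5.85, 5.78, 5.90, 6.61 and 5.67, again with no overlap. There the fall was -1.14 ± 0.19, or 2.20-fold (adjusted p = 0.000546). The diet effects differed by 0.58 with an interval from 0.03 to 1.14, which did not pass (adjusted p = 0.322). Under restriction progeroid livers were 0.43 above wild type livers (0.04 to 0.83, adjusted p = 0.128); without the wild type mouse at 6.19 (421) this was 0.60 and passed (adjusted p = 0.0192). Restricted progeroid livers were also 1.29 below freely fed wild type livers (adjusted p = 4.51e-05), the 1 call among the 10 genes in that comparison, in which 25.4% of all genes were called. Both falls held whichever animal was left out.

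Because Alas2 is known as a gene of red cell precursors, the erythroid markers were set beside it. Of 19 listed, 12 were measured, and 8 of these had a mean under 5 in each group, among them Gata1 (highest group mean 3.02), Rhag (3.03) and Slc4a1 (4.05). The mean level of the 12 markers ranged from 5.35 to 5.82 in freely fed and 5.32 to 5.76 in restricted wild type livers, and from 5.52 to 5.75 in freely fed and 5.26 to 5.66 in restricted progeroid livers. Restriction lowered 1, Car1, a carbonic anhydrase (-0.83 in wild type, adjusted p = 0.000465, and -0.58 in progeroid mice, adjusted p = 0.0159). It raised 1, Klf1, an erythroid transcription factor (0.78 and 0.66). The globin genes are abundant in the blood that stays in the organ. Hba-a1 was 0.58 higher (adjusted p = 0.428) and Hbb-b2 0.62 higher (adjusted p = 0.351) in restricted than in freely fed wild type mice. In progeroid mice the values were -0.83 (adjusted p = 0.285) and -1.02 (adjusted p = 0.146). The part of blood and of red cell precursors in the level of Alas2 was not tested. On control diet Car1 was higher (0.52) and Rhd (-0.35) and Sptb (-0.22) were lower in progeroid mice, and under restriction Car1 was higher (0.77) and Rhd lower (-0.32). For the difference of the diet effects limma called 0 of the 12, and 2 had an unadjusted p under 0.05. The list's median diet changes were -0.03 in wild type and -0.07 in progeroid mice. Of all genes, restriction called 22.5% in wild type and 12.0% in progeroid mice. Genotype called 11.0% on control diet and 17.2% under restriction.

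**Figure D3:**
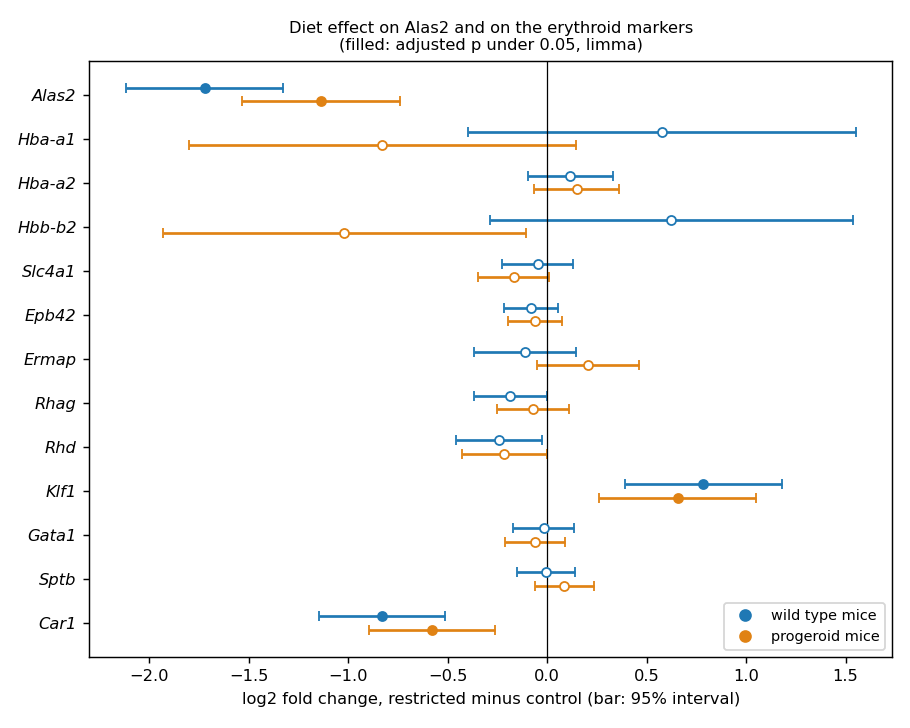
Diet effect (restricted minus control, log2, with 95% interval) on Alas2 and on the 12 measured erythroid markers in wild type mice (blue) and progeroid mice (orange); filled points passed an adjusted p of 0.05. Alas2 fell in both genotypes, at -1.72 and -1.14, while Car1 fell less, Klf1 rose, and the globin genes Hba-a1 and Hbb-b2 pointed up in wild type and down in progeroid mice without passing.

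The 20 values of Alas2 were most like those of Slc22a7, an organic anion transporter of the hepatocyte (Pearson r = 0.96, Spearman rho = 0.93), the cytochrome P450 gene Cyp2d13 (0.95 and 0.91) and the aldehyde oxidase gene Aox3 (0.95 and 0.93). Slc22a7 averaged 10.80 and 10.71 in freely fed wild type and progeroid livers and 7.54 and 8.60 in restricted ones. Hamp2 was most like the cytochrome P450 gene Cyp2b13 (0.93 and 0.63), the retinol dehydrogenase gene Rdh16f2 (0.89 and 0.75) and the glucose transporter gene Slc2a4 (0.89 and 0.59). Cyp2b13 averaged 8.16 in restricted wild type livers and at most 4.22 in the other groups. Tfrc was most like the ribosomal protein gene Rpl23a (0.92 and 0.85), Selenos, a selenoprotein of the endoplasmic reticulum (0.90 and 0.86), and the coatomer gene Arcn1 (0.89 and 0.90). These likenesses are over the same 20 arrays, among 17097 genes, and carry the group differences with them.

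Further along the pathway, 10 other measured genes of heme synthesis were examined. Restriction lowered 4 of them in wild type mice and raised none: Uros, which closes the porphyrin ring (-0.78 ± 0.12, adjusted p = 0.000116), the mitochondrial transporters Abcb10 (-0.54) and Abcb6 (-0.35), and Cpox, a late enzyme of the pathway (-0.29). In progeroid mice it lowered 2, Uros (-0.65, adjusted p = 0.00155) and Abcb10 (-0.44). Abcb10 was also lower in progeroid than in wild type mice on both diets (-0.44 and -0.35), and Abcb6 was higher in progeroid mice under restriction (0.27). Of these 2 calls under restriction 1 was left without mouse 368, 369, 422 or 423. Fech, which inserts iron into the ring, was not called: its group means lay between 10.38 and 10.48. For the difference of the diet effects limma called 0 of the 10, or 1 without mouse 421, and 2 had an unadjusted p under 0.05. The medians were -0.08, 0.01, -0.10 and -0.02 for genotype on control diet, diet in progeroid mice, diet in wild type mice and genotype under restriction. In these comparisons 11.0%, 12.0%, 22.5% and 17.2% of all genes were called. For diet in wild type mice 12.6% of all genes were lower.

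**Figure D4:**
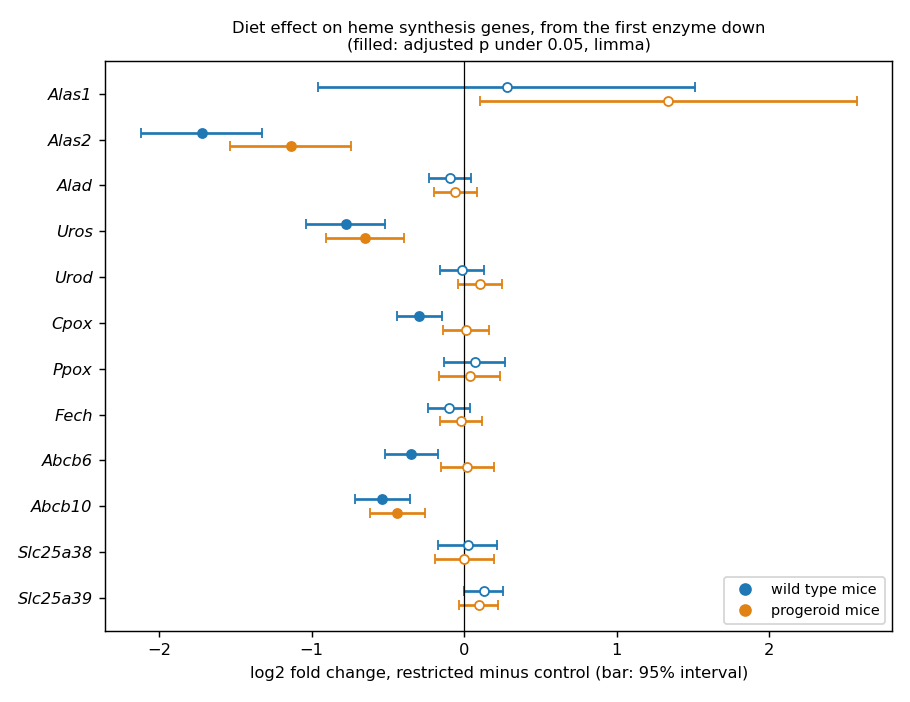
Diet effect (restricted minus control, log2, with 95% interval) on Alas1, Alas2 and the 10 other measured heme synthesis genes in wild type mice (blue) and progeroid mice (orange); filled points passed an adjusted p of 0.05. Alas2, Uros and Abcb10 fell in both genotypes, Cpox and Abcb6 passed in wild type mice, and the intervals of Alas1 are much wider than the others.

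Of 12 measured genes of heme export, scavenging and breakdown, 4 were higher in progeroid mice on control diet: haptoglobin (Hp, 0.28), the lysosomal heme transporter Slc48a1 (0.25), biliverdin reductase A (Blvra, 0.25) and the heme exporter Flvcr1 (0.35). Restriction raised Slc48a1 (0.28 in wild type and 0.36 in progeroid mice) and lowered Abcg2, an exporter of porphyrins and drugs. Abcg2 averaged 10.44 in freely fed and 9.15 in restricted wild type livers, a change of -1.29 ± 0.09 (adjusted p = 1.17e-08), and changed by -0.70 ± 0.09 in progeroid mice (adjusted p = 7.34e-05). It was the 1 gene of the list whose diet effects differed between the genotypes (0.59 ± 0.13, adjusted p = 0.0282), a call lost without any 1 of 8 mice (321, 325, 327, 366, 368, 401, 403 or 423). For diet in wild type mice the 2 calls became 5 without mouse 402 and 4 without mouse 421. Under restriction Abcg2 (0.50), Slc48a1 (0.33) and Flvcr2 (0.90) were higher in progeroid mice. Heme oxygenase 1 (Hmox1) averaged 5.77, 5.19, 5.58 and 5.79 in freely fed and restricted wild type and freely fed and restricted progeroid livers and did not pass (adjusted p = 0.0785 for diet in wild type mice). The medians were 0.05, 0.07, 0.15 and 0.17 in the order above. Of all genes, 11.0%, 12.0%, 22.5% and 17.2% were called in that order, and 1.40% for the difference of the diet effects.

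Ordered by mean level, neighbouring groups differed past the threshold at a single step for 3 of the 10 genes. For Hamp2 it lay between restricted wild type and restricted progeroid mice (1.73), and for Tfrc between restricted wild type and freely fed progeroid mice (0.97, adjusted p = 0.012). For Alas2 it lay between freely fed and restricted progeroid mice (1.14), below which restricted wild type mice came last without a called step. For the other 7 genes no neighbouring groups in the order differed past the threshold, by limma's adjusted p. The steps were chosen by ordering the same values, and the share of all genes with such a step was not counted. The range of group means was 1.87 for Hamp2, 1.72 for Alas2, 1.47 for Tfrc and 1.34 for Alas1, and at most 0.27 for the other 6 genes, where the median over all genes was 0.25.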

How the data were processed

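RNA of 20 livers was measured on 1 array each. Per the submitters' processing notes the authors used RMA, and the deposited values are its log2 levels; its version was not given in the sources used here. This method sets all arrays to the same distribution, so an overall shift of expression would be removed, and it compresses changes near both ends of the scale. The table holds 45141 probe sets per array, with array medians of 4.17 to 4.21, and precision is limited by how many arrays there are. Each label names its own animal, so differences between arrays include those between mice; no batch is named, and no 2 arrays held identical values.

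Gene symbols came from the platform's annotation, and 28689 of 28898 with 1 symbol were found by Entrez ID in a RefSeq table of assembly GRCm38.p6. Probe sets with several symbols or none, and 104 control probe sets, named no gene. Each gene was represented by its probe set of highest mean. Dim probe sets were kept. The 20 arrays were fitted with a mean for each group by limma 3.58.1 in R 4.3.3, with 16 residual degrees of freedom, and 7 contrasts were tested. Of these, 2 compare groups that differ in both genotype and diet. They were planned to order the groups, and their calls are also given. P-values are two-sided and adjusted by Benjamini-Hochberg within a contrast. Further probe sets of a gene come from the same fit on 45037 probe sets. The fit was tested on simulated data. Errors of differences are moderated standard errors (SE), those of levels standard deviations (SD), with 5 mice per group. Upstream sequences from RefSeq were aligned with Biopython 1.88 in Python 3.11.15.

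The members and lists were chosen with earlier results of these data known. The rule for named genes took the 10 members; from each of 5 pathway lists up to 3 genes with the smallest adjusted p per contrast among those past the threshold; all erythroid markers; Ercc1; and for members with a range of group means over 0.5 the 3 genes of highest Pearson correlation. Where a list had up to 7 genes past the threshold, the rest of them, and Fech and Hmox1, were named after their values were seen. Alternatives were another scaling, other rules for probe sets, a filter on dim genes, other moderation, array weights, a fit of only the groups compared, and each animal left out in turn.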

Additional observations from a re-analysis of the deposited data

Results flagged for a closer look

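For each of the 10 genes the highest and lowest mouse of each group was compared with its neighbours, in 40 groups of 5, against a critical gap of 0.71 of the group's range; chance passes this in about 1 in 20 groups. There were 2 such mice, both progeroid and restricted. Mouse 362 had a Hamp2 level of 10.40, where the nearest other mouse had 11.12, a gap of 0.831 of the range. Mouse 368 had an Alas2 level of 6.61 against 5.90 in the nearest, a gap of 0.756.

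The effect of restriction differed between the genotypes for 2 genes, by limma's test of the difference with adjustment over all genes. For Hamp2 the difference, progeroid minus wild type, was -1.69 on the log2 scale (adjusted p = 0.0197), with all 5 restricted wild type mice above all 5 freely fed ones. Its second, dim probe set gave -0.19 and did not pass (adjusted p = 0.435). For Tfrc the difference was -1.76 (adjusted p = 0.0275), with the same separation in wild type mice. Leaving out single mice gave an adjusted p between 0.0114 and 0.0571. The dim probe sets of Tfrc gave -0.58 and -0.61 and did not pass (adjusted p = 0.099 and 0.0692).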

How the results depend on the processing

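No paired analysis was made, because the 4 groups share no animal numbers and the labels used here name no litter. Whether mice of different groups came from the same litter is therefore not known here. Leaving out probe sets whose names end in _x_at, _s_at or _a_at moved the count of called members most, since Trf, Fth1, Ftl1 and Alas2 then had no probe set and Hamp2 only its dim one: 0 were called for diet in progeroid mice, 1 for diet in wild type mice, 1 for genotype under restriction, 1 for the difference of the diet effects, 0 for restricted progeroid against freely fed wild type mice and 1 for freely fed progeroid against restricted wild type mice. Hamp2 then changed by 0.18 with diet in wild type mice (adjusted p = 0.0888), and its small values turned sign for genotype on control diet (0.00356), diet in progeroid mice (-0.0117) and restricted progeroid against freely fed wild type mice (-0.00816). With array weights 363 of all genes differed in diet effect, where 240 did without, and a fit of only the 2 groups called 1 member for diet in progeroid mice. Leaving out 1 animal at a time gave 103 to 490 genes with a difference of the diet effects. It gave 1 to 3 members called for diet in progeroid mice, 1 to 2 for the difference of the diet effects, 0 to 1 for genotype on control diet and 3 to 6 for freely fed progeroid against restricted wild type mice; the cause was not tested.

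Sign changes touched 15 results that passed in no setting concerned. With array weights they were Hamp in restricted progeroid against freely fed wild type mice (0.00662), and Slc40a1 (0.014) and Trf (-0.00263) for diet in wild type mice; with the mean of probe sets it was Slc40a1 for genotype under restriction (0.0182). The ranges over animals left out that cross 0 were these. For Hamp2 they were -0.212 to 0.0551 (genotype on control diet) and -0.0756 to 0.253 (restricted progeroid against freely fed wild type). For Hamp the range was -0.035 to 0.0282 in the latter comparison, for Ftl1 -0.0307 to 0.077, for Slc40a1 -0.0816 to 0.0147 and for Alas1 -0.286 to 0.798. For Slc40a1 it was also -0.0649 to 0.0314 (diet in wild type) and -0.0461 to 0.0157 (genotype under restriction). For Trf the ranges were -0.0011 to 0.0268 (diet in progeroid), -0.0102 to 0.0223 (diet in wild type) and -0.00761 to 0.0273 (difference of the diet effects). For Alas1 they were -0.437 to 0.646 (diet in wild type) and -0.0207 to 0.351 (genotype under restriction), and for Bmp6 -0.11 to 0.0183 (freely fed progeroid against restricted wild type). The first Hamp probe set, 0.19 lower in freely fed progeroid than restricted wild type mice, passed with array weights (adjusted p = 0.0386), with the mean of its probe sets (0.0365) and with trend and robust moderation (0.0472). Counts of the pathway lists that moved by over 1.5 times when 1 mouse was left out stand beside each list. Leaving out the probe sets by name gave 0 calls in the BMP list for genotype on control diet and 1 under restriction. In the interleukin 6 list it gave 1 and 2 calls there and 0 for the difference of the diet effects. It gave 0 for iron transport in progeroid mice, where other settings gave 2 to 3, and 1 for heme export with diet in each genotype. Signal over background limits the second probe set of Hamp2 and the other 2 of Tfrc, of which the former lay below the array medians in all livers.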
